A study of Arabidopsis thaliana with 36 samples.

Results

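Nitrite is turned into ammonium in root plastids with electrons that come from sugar oxidation. The transcripts described here belong to 9 genes of Arabidopsis thaliana for proteins that make NADPH in the pentose phosphate pathway, carry electrons by way of ferredoxin or make the cofactor of nitrite reductase. They are 2 plastid glucose-6-phosphate dehydrogenases (G6PD3, AT1G24280, and G6PD2, AT5G13110), 3 dehydrogenases of 6-phosphogluconate (AT1G64190, AT5G41670 and AT3G02360), 2 root ferredoxin-NADP reductases (RFNR1, AT4G05390, and RFNR2, AT1G30510), the root ferredoxin FD3 (AT2G27510) and the uroporphyrinogen III methyltransferase UPM1 (AT5G40850). The genes were chosen by their identifiers, with earlier results of these data known. All 9 were found among 32833 identifiers, and all 9 passed the filter on low counts that left 18768 genes for testing.

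The plants were wild-type Col-0, raised for 7 days on mesh over medium with 1 mM KNO3. At 2 h after dawn they were moved to fresh medium with 10 mM KNO3 or with 1 mM KNO3, and roots were frozen 15, 45, 90 or 180 min later. Roots of the 0 min group were lifted on their mesh and put back on the plate they came from, which held 1 mM KNO3. Every group (there are 9) has 4 libraries, and the replicate number, 1 to 4, is that of the batch. Each library pools the roots of 2 plates. Whole roots were used, so fewer cells of a type and less RNA per cell cannot be told apart.

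Nitrate reductase makes nitrite in the cytosol, and nitrite reductase (NIR1) reduces it to ammonium in the plastid with electrons from reduced ferredoxin. In roots, where no light reaction reduces ferredoxin, the root-type ferredoxin-NADP reductase passes electrons to it from NADPH, and the oxidative pentose phosphate pathway makes that NADPH through glucose-6-phosphate dehydrogenase and 6-phosphogluconate dehydrogenase. Nitrite reductase carries a sirohaem group, and UPM1 catalyses the step at which sirohaem synthesis leaves the common tetrapyrrole pathway. Several of these genes are known as nitrate-responsive in roots.

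A sequence known to give the nitrite reductase gene its response to nitrate, the nitrate-responsive element, was looked for in the 1000 bases before the start codon of each gene, on both strands, in the RefSeq annotation of build TAIR10.1. The sites below are shown because NIR1, the nitrite reductase gene, holds the whole element and no member does. Each reads 5' to 3' on the strand of its gene, with the matching bases in capitals. The whole element, GACNCTT followed by 10 bases of any kind and AAG, was found in 0 of the 9 windows and in 0.55% of 27443 windows of protein-coding genes. Its left arm alone, GACNCTT, was in 2 of 9 and in 26.4% of all. Its spaced inner pair, CTT and AAG with 10 bases of any kind between them, which reads the same on both strands and lies inside the whole element, was in 3 of 9 and in 31.8% of all. A further known motif, GAATATTC, bound by repressors of the nitrate response, was in 0 of 9 and in 2.7% of all. A match is a description of these letters and not a mapped site.
NIR1, whole element, chr2:6810454-6810483, plus strand, 74 bases before the start codon: aacttGACcCTTtacattgctcAAGagctc
RFNR2, spaced pair, chr1:10809918-10809943, minus strand, 939 bases before the start codon: aaagcCTTccttcacgggAAGgtctt
UPM1, spaced pair, chr5:16366401-16366426, plus strand, 784 bases before the start codon: ttcccCTTgaaagcatcaAAGggtta
UPM1, spaced pair, chr5:16366777-16366802, plus strand, 408 bases before the start codon: ctctgCTTcgatacttcaAAGtctgt
UPM1, spaced pair, chr5:16366883-16366908, plus strand, 302 bases before the start codon: gaactCTTtatcagaattAAGgaccc
AT5G41670, spaced pair, chr5:16667854-16667879, minus strand, 749 bases before the start codon: ttcctCTTgttcctctcgAAGcagaa
The NIR1 site and the 3 UPM1 sites lie within the annotated genes, before the start codon, and the RFNR2 and AT5G41670 sites lie upstream of the annotated genes. A left arm of UPM1, 918 bases before the start codon, also lies within the annotated gene. Most of the UPM1 window is therefore not upstream of the gene. In the windows of the 9 genes no spaced pair overlapped a left arm.

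The libraries were made by BrAD-seq, a digital gene expression method that reads the 3' ends of poly-A transcripts, and were deposited as raw counts. Total counts ran from 1376404 to 7512410 per library, and replicate 1 was the shallowest batch. The shallowest library was replicate 4 of 1 mM at 45 min, which stood apart, with a median correlation to its group mates of 0.912 against 0.943 for the next lowest library. It was the lowest of its group for 7 of the 9 genes and the highest for 1, so values at 1 mM and 45 min are also given without it. Replicate 3 of 0 min was the highest of its group for 6 of the 9. Root hair, endodermis, xylem and root tip markers all had reads, while 8 leaf photosynthesis markers summed to 27.9 to 56.2 CPM (counts scaled to library size) per library, with none at 0, and their part in any result was not tested. A gene is called changed at an adjusted p of 0.05 or less in edgeR's quasi-likelihood test over all 18768 genes. Levels are CPM after TMM scaling, given as mean ± SD with n = 4, and changes are log2 fold changes ± SE. The SE is derived from the F statistic and is approximate, as are the intervals built on it.

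Transcripts of most of these genes were more abundant after the move, and at 45 min 7 of the 9 were called higher on each concentration. The 7 were the same on both: G6PD3, AT1G64190, AT5G41670, RFNR1, RFNR2, FD3 and UPM1. The background was 4.37% of all genes called higher on 10 mM at 45 min and 4.72% on 1 mM. On 10 mM, 2 members were called higher at 15 min, 5 at 90 min and 5 at 180 min, where 4.35%, 4.4% and 4.49% of all genes were. On 1 mM, 0 members were called at 15 min (4 had an unadjusted p under 0.05, and DESeq2 called UPM1), 1 at 90 min and 2 at 180 min, against 5.44%, 4.93% and 4.82% of all genes. In the edgeR fit of all 36 libraries without a block, no member was called lower. Of all genes 0.81%, 1.46%, 1.98% and 2.37% were on 10 mM and 1.48%, 2.27%, 2.21% and 2.72% on 1 mM. All 4 libraries lay above all 4 of 0 min for 4, 7, 5 and 4 members on 10 mM, and for 5.86%, 6.16%, 6.13% and 7.12% of all genes. On 1 mM they did so for 1, 2, 2 and 2 members, and for 6.96%, 5.38%, 7.06% and 6.99% of all genes. The median change of the 9 genes on 10 mM was 0.39, 0.74, 0.54 and 0.51 at 15, 45, 90 and 180 min, and on 1 mM it was 0.25, 0.59, 0.20 and 0.25, while the median over all genes lay between -0.03 and 0.00. The labels do not say that the batches were separate cultures, so p-values measure the spread between these libraries. All these comparisons share the 4 libraries of 0 min, and time after the move, handling and time of day cannot be told apart in them. With batch as a replicate block, 6, 8, 5 and 6 members were called higher on 10 mM at 15, 45, 90 and 180 min. Of all genes 5.56%, 5.92%, 6.52% and 6.57% were. On 1 mM 2, 8, 2 and 2 members were called higher, beside 6.91%, 7.23%, 7.26% and 7.12% of all genes. In that fit 1 member, AT3G02360, was called lower, on 1 mM at 180 min, beside 5.07% of all genes.

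**Figure D1:**
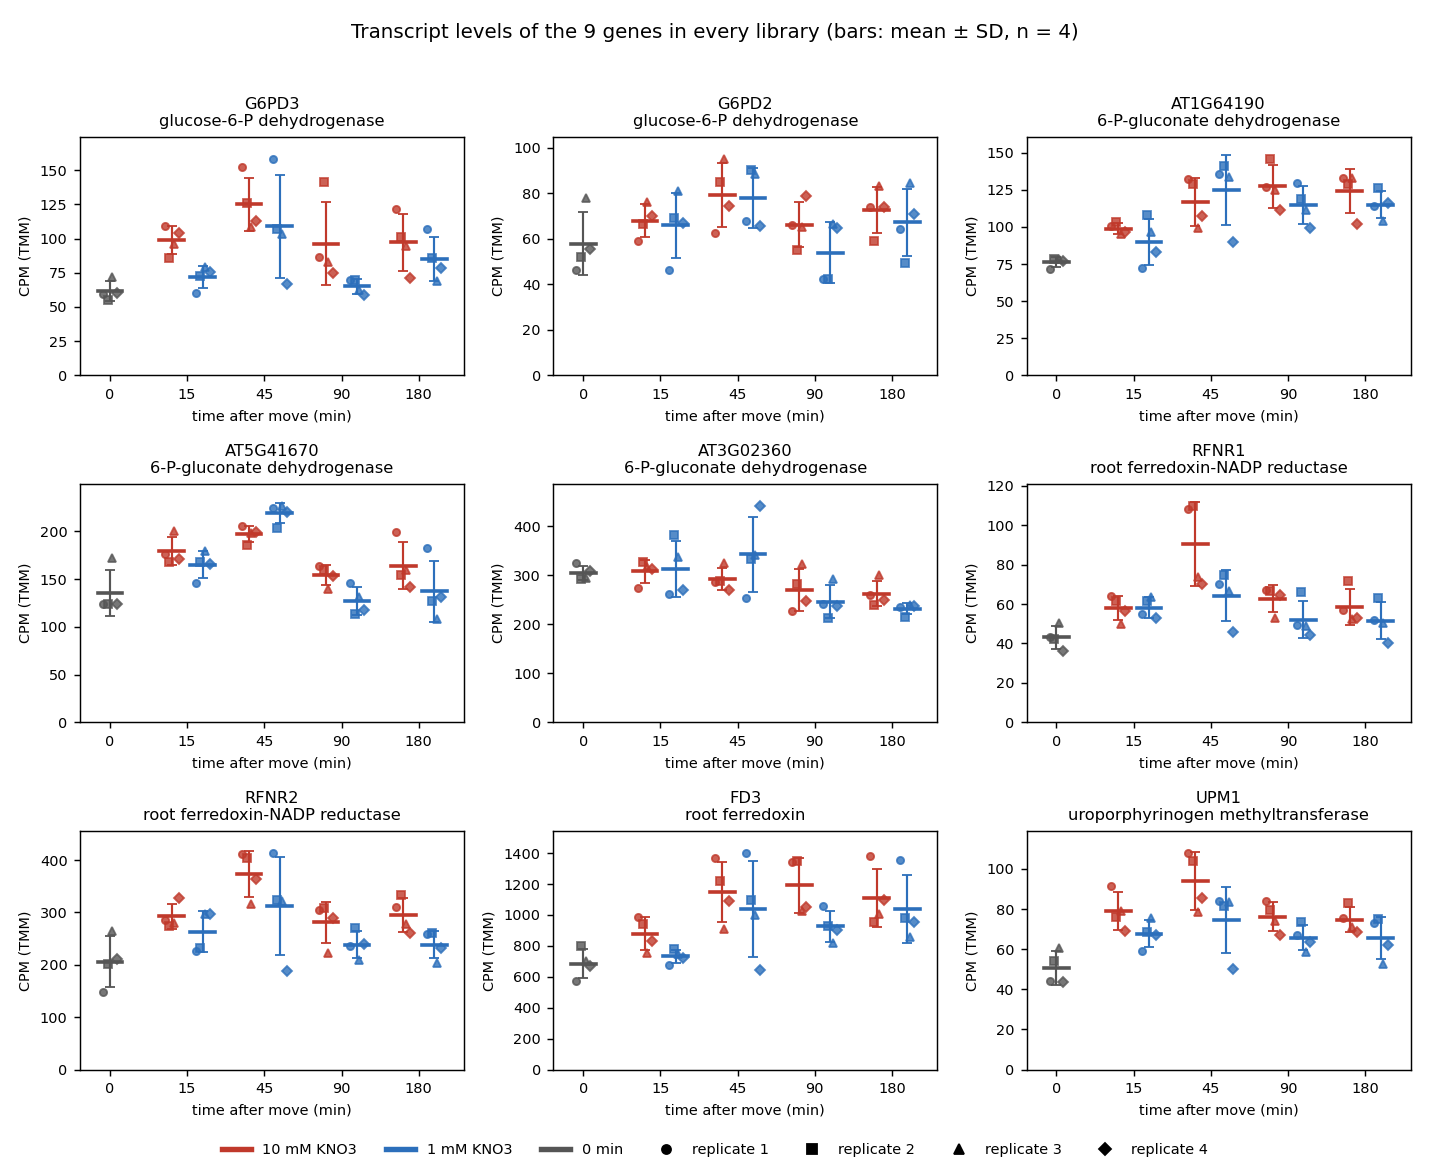
Levels of the 9 genes in every library, in CPM on linear axes that start at 0, against time after the move in min, with the 4 libraries of a group as points (1 symbol per replicate) and bars for mean ± SD, 10 mM beside 1 mM at each time and 0 min at the left. Of the 9 genes, 6 have their lowest mean at 0 min and 5 have their highest on 10 mM at 45 min, and replicate 4 of 1 mM at 45 min is the lowest of its group for 7.

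**Figure D2:**
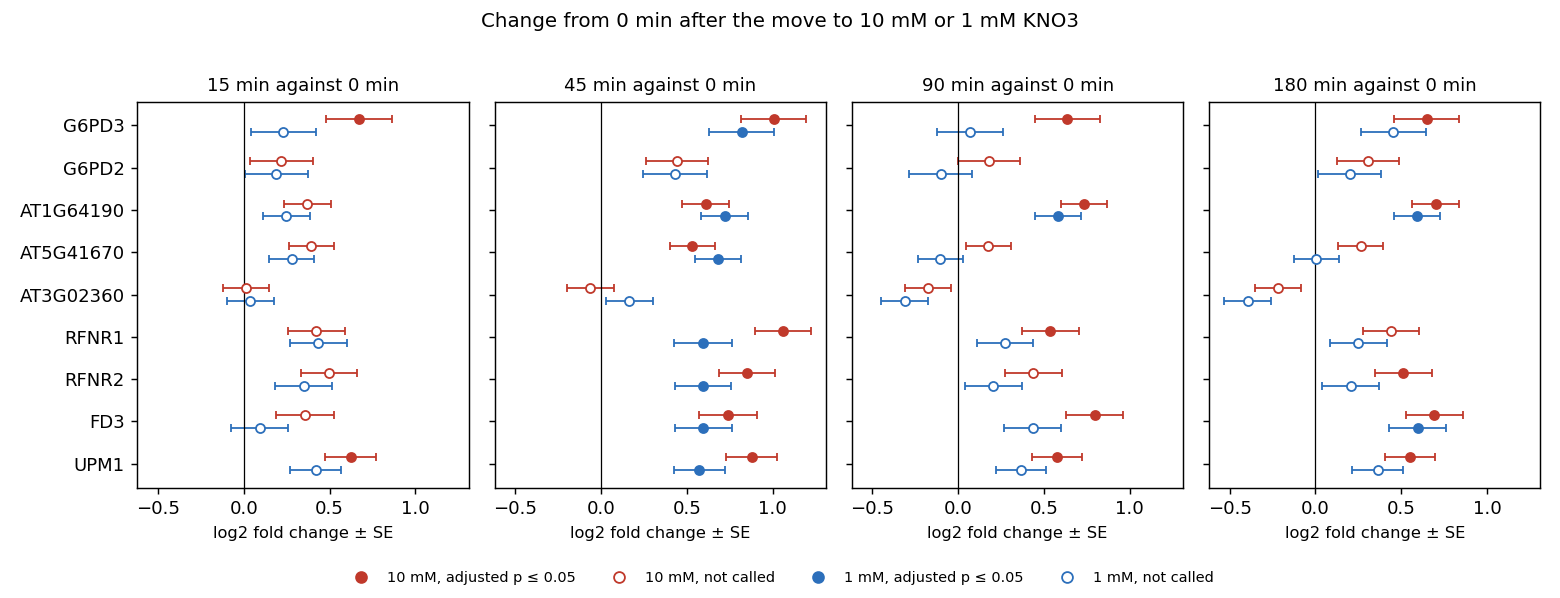
Log2 fold change ± SE (edgeR, n = 4 a group) of each gene against 0 min, with 1 panel per time, 10 mM above 1 mM within a gene, and filled points for an adjusted p of 0.05 or less. At 45 min 7 of the 9 genes are filled on both concentrations, and AT3G02360 lies to the left of the other genes at 90 and 180 min.

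Among the glucose-6-phosphate dehydrogenases, the enzymes that commit glucose 6-phosphate to the pathway, G6PD3 was called in 5 of 8 comparisons with 0 min and G6PD2 in 0 (DESeq2 did not call it either). G6PD3 had 109, 86.2, 95.8 and 104 CPM in replicates 1 to 4 on 10 mM at 15 min, 60.4, 72.5, 79.4 and 75.8 CPM on 1 mM at 15 min, and 59.5, 54.9, 71.9 and 60.2 CPM at 0 min. All 4 libraries of 10 mM lay above all of both other groups, which overlapped each other. At 15 min its change from 0 min was 0.67 ± 0.19 on 10 mM (adjusted p = 0.024 by edgeR) and 0.23 ± 0.19 on 1 mM (adjusted p = 0.754 by edgeR). G6PD3 was not called between the 2 media at 15 min (adjusted p = 0.9998 by edgeR, and 0.825 with the replicate block). At 45 min it had 152, 126, 109 and 113 CPM on 10 mM, and 158, 107, 103 and 67.0 CPM on 1 mM. The change was 1.01 ± 0.19 on 10 mM (adjusted p = 0.000275 by edgeR) and 0.82 ± 0.19 on 1 mM (adjusted p = 0.00378 by edgeR), and without replicate 4 the change on 1 mM was 0.98. At 90 min G6PD3 averaged 96.2 ± 30.4 CPM on 10 mM, of which replicate 2 had 141 CPM, and 65.1 ± 5.49 CPM on 1 mM. The change from 0 min was then 0.63 ± 0.19 on 10 mM (adjusted p = 0.0321 by edgeR) and 0.07 ± 0.19 on 1 mM. At 180 min it averaged 97.3 ± 20.8 CPM on 10 mM and 85.2 ± 16.3 CPM on 1 mM, and 10 mM was called against 0 min at 0.65 ± 0.19 (adjusted p = 0.0262 by edgeR). The calls on 10 mM other than that at 45 min depended on single libraries. At 15 min the call ended without replicate 1, 2 or 4 of 0 min or replicate 1 or 4 of 10 mM (0.62 to 0.66, adjusted p 0.0602 to 0.0946 by edgeR). At 90 min it ended without replicate 1, 2 or 4 of 0 min or replicate 2 of 10 mM, with 0.40 without that last library (adjusted p = 0.294 by edgeR). At 180 min it ended without replicate 1, 2 or 4 of 0 min or replicate 1 or 2 of 10 mM (0.52 to 0.64, adjusted p 0.057 to 0.136 by edgeR).

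G6PD2 was called in none of the 8 comparisons by edgeR in the fit of all 36 libraries without the block. Its highest group mean, 79.2 CPM on 10 mM at 45 min, was 1.47 times its lowest, 53.9 CPM on 1 mM at 90 min. At 45 min the libraries had 62.5, 84.8, 95.2 and 74.2 CPM on 10 mM, 67.6, 90.1, 88.4 and 65.6 CPM on 1 mM, and 46.1, 51.9, 78.1 and 55.5 CPM at 0 min, and the groups overlapped because replicate 3 of 0 min was high. The change at 45 min was 0.44 ± 0.18 on 10 mM (adjusted p = 0.194 by edgeR) and 0.43 ± 0.18 on 1 mM (adjusted p = 0.18 by edgeR). Both were called with the replicate block (adjusted p = 0.0183 on each by edgeR), and without replicate 3 of 0 min (0.64 on 10 mM and 0.63 on 1 mM, adjusted p = 0.0433 and 0.0487 by edgeR).

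The enzymes that act on 6-phosphogluconate make the next NADPH of the pathway, and their 3 genes were called in 6, 2 and 0 of the 8 comparisons. AT1G64190 and AT5G41670 encode enzymes found in both plastids and cytosol, and AT3G02360 encodes one of the cytosol and peroxisomes. AT1G64190 was called higher in the 6 comparisons at 45, 90 and 180 min, the most of any of the 9 genes. It had 71.4, 78.4, 78.3 and 76.8 CPM at 0 min, a tight group, and every library at 45, 90 and 180 min on either concentration lay above these. On 10 mM it had 132, 129, 99.3 and 107 CPM at 45 min, 127, 146, 125 and 111 CPM at 90 min, and 133, 129, 133 and 102 CPM at 180 min. On 1 mM it had 136, 141, 133 and 89.6 CPM at 45 min, 129.7, 119, 111 and 99.3 CPM at 90 min, and 114, 126, 104 and 116 CPM at 180 min. The groups at these times did not overlap 0 min on either medium. The change from 0 min on 10 mM was 0.61 ± 0.13, 0.73 ± 0.13 and 0.70 ± 0.13 at these times (adjusted p 0.00233, 0.00018 and 0.000357 by edgeR). On 1 mM it was 0.72 ± 0.14, 0.58 ± 0.13 and 0.59 ± 0.13 (adjusted p 0.00027, 0.00312 and 0.00269 by edgeR), and all 6 calls held without any single library. At 15 min it was 0.37 ± 0.14 on 10 mM, where all 4 libraries also lay above 0 min (adjusted p = 0.137 by edgeR, and 0.0318 with the replicate block).

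AT5G41670 was called at 45 min on both media and at no other time by edgeR without the block. At that time it had 206, 185, 198 and 199 CPM on 10 mM, 225, 204, 227 and 220.1 CPM on 1 mM, and 124, 124, 172 and 124 CPM at 0 min. No library of 0 min reached those of 45 min, and here replicate 4 of 1 mM was close to its group mates. The change was 0.53 ± 0.13 on 10 mM (adjusted p = 0.00776 by edgeR) and 0.68 ± 0.13 on 1 mM (adjusted p = 0.000399 by edgeR). At 90 min the means were 154 ± 10.4 CPM on 10 mM and 127 ± 14.4 CPM on 1 mM, beside 136 ± 24.1 CPM at 0 min, and the groups overlapped. At 15 min on 10 mM the change was 0.39 ± 0.13 (adjusted p = 0.0846 by edgeR), which was called with the replicate block (adjusted p = 0.0234) and by DESeq2 (adjusted p = 0.0463), and also without replicate 3 of 0 min (0.53, adjusted p = 0.0122 by edgeR).

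AT3G02360 was called in 0 of 8 comparisons by edgeR in the fit of all 36 libraries without the block. Its group means at 90 and 180 min were below that of 0 min. It had 236, 216, 240.0 and 237 CPM on 1 mM at 180 min, and 325, 293, 295 and 309 CPM at 0 min, so that all 4 libraries lay below 0 min. All 4 libraries of 5.23% of all genes did so in that comparison. The change was -0.40 ± 0.14 (adjusted p = 0.0707 by edgeR), and it passed the threshold with the replicate block (adjusted p = 0.0163 by edgeR), by DESeq2 (adjusted p = 0.0413) and when only the 8 libraries compared were used (adjusted p = 0.0322 by edgeR). On 1 mM at 90 min it was -0.31 ± 0.14, again with all 4 libraries below 0 min, as for 4.71% of all genes (adjusted p = 0.201 by edgeR). On 10 mM the change was -0.18 ± 0.14 at 90 min and -0.22 ± 0.14 at 180 min, with overlapping groups. At 45 min replicate 4 of 1 mM had 442 CPM and the other 3 libraries had 255 to 341 CPM.

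The root ferredoxin-NADP reductases and ferredoxin FD3, the chain that carries electrons from NADPH to nitrite reductase, were all called at 45 min on both media. RFNR1 had 108, 109.8, 73.7 and 70.2 CPM on 10 mM at 45 min, 70.3, 74.4, 66.6 and 45.8 CPM on 1 mM, and 43.5, 42.1, 50.5 and 36.4 CPM at 0 min. On 10 mM every library was above 0 min, and replicates 1 and 2 were well above replicates 3 and 4. The change was 1.06 ± 0.16 on 10 mM (adjusted p = 1.3e-05 by edgeR), the largest of any member against 0 min, and 0.59 ± 0.17 on 1 mM (adjusted p = 0.0206 by edgeR). The call on 1 mM ended without any of 5 libraries, which were replicates 1, 2 and 3 of 1 mM and replicates 2 and 4 of 0 min (0.53 to 0.58, adjusted p 0.0502 to 0.093 by edgeR), and the change was 0.71 without replicate 4. By 90 min RFNR1 averaged 62.8 ± 6.76 CPM on 10 mM, which was called against 0 min at 0.54 ± 0.16 (adjusted p = 0.0397 by edgeR), and 52.1 ± 9.48 CPM on 1 mM. That call ended without replicate 1, 2 or 4 of either group (0.47 to 0.55, adjusted p 0.0634 to 0.149 by edgeR). At 180 min on 10 mM the change was 0.44 ± 0.16 (adjusted p = 0.114 by edgeR, and 0.0193 with the block). At 15 min the change was 0.42 ± 0.17 on 10 mM (adjusted p = 0.196 by edgeR, and 0.036 with the block) and 0.44 ± 0.17 on 1 mM (adjusted p = 0.133 by edgeR, and 0.0174 with the block).

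RFNR2 had 411, 404, 316 and 364 CPM on 10 mM at 45 min, 414, 324, 322 and 188 CPM on 1 mM, and 148, 201, 265 and 211 CPM at 0 min. The groups of 10 mM and 0 min did not overlap, and replicate 4 of 1 mM lay within the range of 0 min. The change was 0.85 ± 0.16 on 10 mM (adjusted p = 0.000419 by edgeR) and 0.59 ± 0.16 on 1 mM (adjusted p = 0.0188 by edgeR). On 1 mM it was 0.77 without replicate 4, and the call ended without replicate 1 of 1 mM or replicate 1 or 2 of 0 min (0.43 to 0.58, adjusted p 0.0528 to 0.125 by edgeR). At 180 min on 10 mM RFNR2 averaged 295 ± 32.2 CPM and was called narrowly at 0.51 ± 0.16 (adjusted p = 0.0494 by edgeR). That call ended under RLE scaling (adjusted p = 0.0524 by edgeR) and without any of replicates 1, 2 and 3 of 10 mM or 1, 2 and 4 of 0 min (0.39 to 0.55, adjusted p 0.0645 to 0.222 by edgeR). At 15 min on 10 mM all 4 libraries, at 275 to 327 CPM, were above 0 min, and the change of 0.50 ± 0.16 was not called (adjusted p = 0.0765 by edgeR) unless the block was used (adjusted p = 0.0316 by edgeR) or replicate 3 of 0 min was left out (0.64, adjusted p = 0.0191 by edgeR). At 90 min on 10 mM it was 0.44 ± 0.16 (adjusted p = 0.121 by edgeR), or 0.59 without replicate 3 of 0 min (adjusted p = 0.0344 by edgeR).

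FD3 was counted with the most reads of the 9 genes, from 915 to 7887 in a library. It had 1367, 1219, 908 and 1092 CPM on 10 mM at 45 min, 1402, 1097, 1002 and 645 CPM on 1 mM, and 572, 802, 699.6 and 669 CPM at 0 min. At 180 min it had 1379.6, 957, 1005 and 1095 CPM on 10 mM, and 1355, 978, 858 and 956 CPM on 1 mM. All of these but replicate 4 of 1 mM at 45 min lay above the 4 libraries of 0 min. The change on 10 mM was 0.74 ± 0.17, 0.80 ± 0.17 and 0.69 ± 0.17 at 45, 90 and 180 min (adjusted p 0.00286, 0.00113 and 0.00511 by edgeR). On 1 mM it was 0.60 ± 0.17, 0.44 ± 0.17 and 0.59 ± 0.17 (adjusted p 0.02, 0.122 and 0.0177 by edgeR). The call on 1 mM at 45 min ended without replicate 1 of 1 mM or of 0 min (0.42 and 0.53, adjusted p 0.144 and 0.0702 by edgeR) and was 0.77 without replicate 4, and that at 180 min ended without replicate 1 of either group (0.44 and 0.52, adjusted p 0.134 and 0.0744 by edgeR). At 90 min FD3 on 1 mM was called with the block (adjusted p = 0.0212 by edgeR) and with only the 8 libraries compared (adjusted p = 0.042 by edgeR). At 15 min the change was 0.36 ± 0.17 on 10 mM and 0.09 ± 0.17 on 1 mM, neither of them called (adjusted p = 0.361 and 0.934 by edgeR).

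UPM1, the methyltransferase of the sirohaem branch, was called at every time on 10 mM. It had 91.6, 76.0, 78.9 and 69.2 CPM on 10 mM at 15 min, 59.1, 68.8, 75.5 and 67.2 CPM on 1 mM at 15 min, and 44.0, 54.0, 60.7 and 43.8 CPM at 0 min. All libraries of 10 mM were above 0 min, and 1 mM overlapped both. The change on 10 mM was 0.62 ± 0.15, 0.88 ± 0.15, 0.58 ± 0.15 and 0.55 ± 0.15 at 15, 45, 90 and 180 min (adjusted p 0.00431, 4.53e-05, 0.00905 and 0.0123 by edgeR). On 1 mM it was 0.42 ± 0.15, 0.57 ± 0.15, 0.37 ± 0.15 and 0.36 ± 0.15 (adjusted p 0.0883, 0.0108, 0.149 and 0.152 by edgeR). At 45 min it had 108, 104, 78.4 and 85.7 CPM on 10 mM, and 83.8, 81.3, 83.7 and 50.1 CPM on 1 mM, where replicate 4 alone fell within the range of 0 min and the change without it was 0.71. The call on 1 mM at 45 min ended without replicate 3 of 1 mM or replicate 4 of 0 min (both 0.51, adjusted p 0.0504 and 0.0547 by edgeR), and that on 10 mM at 180 min without replicate 2 of 10 mM or replicate 4 of 0 min (0.50 and 0.48, adjusted p 0.0516 and 0.0682 by edgeR). On 1 mM at 15 min UPM1 was called with the block (adjusted p = 0.0172 by edgeR), by DESeq2 (adjusted p = 0.0454) and without replicate 3 of 0 min (0.53, adjusted p = 0.0358 by edgeR). When the fit held only the 8 libraries compared, RFNR1, RFNR2, FD3 and UPM1 were no longer called on 1 mM at 45 min (adjusted p 0.0782, 0.174, 0.125 and 0.114 by edgeR), and 3 of the 7 members remained.

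In no member did a group's libraries lie wholly apart from those of the group next to it in the order of the 9 means. The ratio of the highest to the lowest group mean was 2.1 for RFNR1, 2.03 for G6PD3, 1.86 for UPM1, 1.81 for RFNR2, 1.74 for FD3, 1.72 for AT5G41670, 1.67 for AT1G64190, 1.48 for AT3G02360 and 1.47 for G6PD2. The highest mean was on 10 mM at 45 min for G6PD3, G6PD2, RFNR1, RFNR2 and UPM1, on 10 mM at 90 min for AT1G64190 and FD3, and on 1 mM at 45 min for AT5G41670 and AT3G02360. The lowest mean was at 0 min for 6 members, and for G6PD2, AT5G41670 and AT3G02360 it was on 1 mM at 90 or 180 min.

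The direct comparison of 10 mM with 1 mM at the same time asks what the higher concentration added to the move. Most values were higher on 10 mM, but no member was called by edgeR without the block. With the block edgeR called 0 members at 15, 45, 90 or 180 min, beside 2, 0, 9 and 0 of all genes. For the average of the 4 times it called 1, G6PD3. At 15, 45, 90 and 180 min 0 of 9 members were called, with 0% of all genes called at each time, and 1, 2, 3 and 0 members had an unadjusted p under 0.05. DESeq2 also called 0 members at each time. In simulated data for the contrast at 45 min, edgeR recovered only 17.9% of 1.5-fold shifts. They were put into randomly picked tested genes, together with 2-fold and 4-fold shifts and without a batch effect. The rate may therefore differ for the 9 genes in the real data. The lack of calls at 45 min does not show that levels were equal. Of the 36 values of 9 genes at 4 times, 31 were positive, and the median was 0.12, 0.14, 0.27 and 0.19, beside -0.01 to 0.00 over all genes. The 9 genes of a time share the same libraries and correlate within groups (median r = 0.36), so these values are not separate observations. Without replicate 4 of 1 mM at 45 min the median at 45 min was -0.02, with 4 of 9 values positive in place of 6, and G6PD2 and FD3 changed sign (-0.05 and -0.02). Of all 36 values 29 were then positive.

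G6PD3 was apart from 1 mM at 15 and at 90 min. All 4 libraries of 10 mM at 90 min, at 86.2, 141, 83.1 and 74.5 CPM, were above those of 1 mM, at 69.6, 69.7, 62.5 and 58.6 CPM. The difference was 0.57 ± 0.19 at 90 min (adjusted p = 0.844 by edgeR, and 0.172 with the block). At 15 min the difference was 0.44 ± 0.19 (adjusted p = 0.9998 by edgeR, and 0.825 with the block). It was 0.32 at 90 min without replicate 2 of 10 mM. All 4 libraries on 10 mM lay above all 4 on 1 mM for 0.964% of all genes at 15 min, 1.26% at 45 min, when no member did so, and 1.18% at 90 min. At 180 min RFNR2 and AT3G02360 did so, at 261 to 332 CPM against 204 to 259.9 CPM for RFNR2 and at 240.4 to 299.9 CPM against 216 to 240.0 CPM for AT3G02360, beside 0.996% of all genes. RFNR1 at 45 min differed by 0.46 ± 0.16 (adjusted p = 0.97 by edgeR, and 0.376 with the block). It was higher in 4 of 4 batches, a share not counted over all genes, and the difference was 0.35 without replicate 4 of 1 mM. AT1G64190 and AT5G41670 at 45 min were lower on 10 mM, by -0.11 ± 0.13 and -0.15 ± 0.13, and neither was called (adjusted p = 0.979 and 0.972 by edgeR). Without replicate 4 of 1 mM these values were -0.23 and -0.15.

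Averaged over the 4 times, all 9 genes had positive differences, with a median of 0.22 (0.17 without replicate 4 of 1 mM at 45 min) and with 0 of 9 called by edgeR (5 had an unadjusted p under 0.05, and of all genes 0.0107% were called higher and 0.00533% lower). The value of G6PD3 was 0.35 ± 0.09 (95% interval 0.16 to 0.53, adjusted p = 0.397 by edgeR), and it was 0.32, 0.43, 0.30 and 0.35 within batches 1 to 4. It was called with the replicate block (0.34, adjusted p = 0.0333 by edgeR). In that fit 0.0799% of all genes were called higher and 0.155% lower. UPM1 had 0.23 ± 0.07, RFNR2 0.24 ± 0.08, RFNR1 0.23 ± 0.08 and FD3 0.22 ± 0.08, each with an interval above 0 and an unadjusted p under 0.05, and with adjusted p-values of 0.653, 0.836, 0.887 and 0.898 by edgeR. With the block these adjusted p-values were 0.141, 0.265, 0.136 and 0.189 by edgeR, so none of the 4 was called. UPM1, RFNR2 and FD3 were higher on 10 mM in 4 of 4 batches, and RFNR1 in 3 of 4. These batch values come from the same libraries as the averages, and the share of all genes with 4 of 4 was not counted. The intervals of the other 4 held 0, at -0.07 to 0.29 for G6PD2, -0.06 to 0.20 for AT1G64190, -0.0043 to 0.25 for AT5G41670, and -0.12 to 0.15 for AT3G02360. DESeq2 also called 0 members for the average. A test that the 4 differences were unequal called 0 members and 0% of all genes, and DESeq2 called 0 members. An unadjusted p under 0.05 was reached by 0 members and by 405 of all 18768 genes. The times at which G6PD3 stood apart were therefore not shown to differ from the others.

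**Figure D3:**
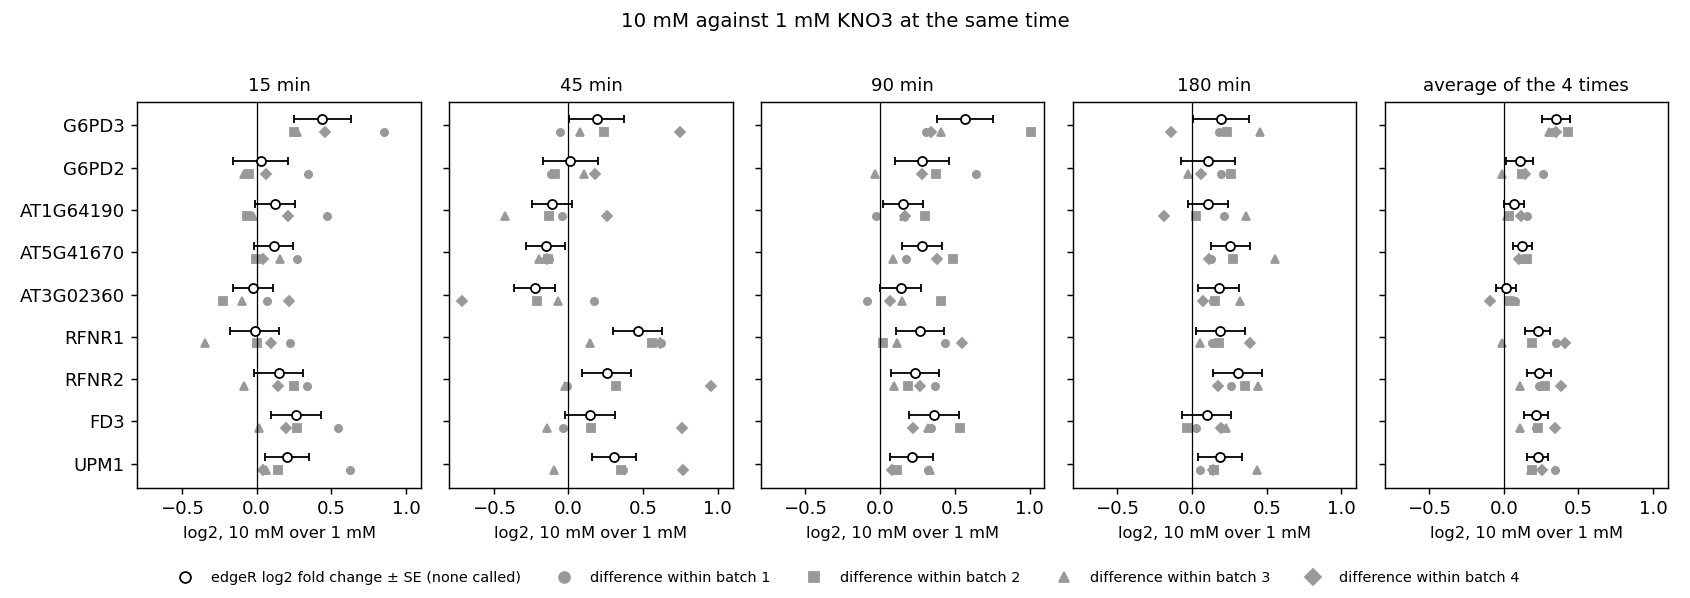
Log2 difference of 10 mM over 1 mM for each gene at each time and for the average of the 4 times, with open points for edgeR's value ± SE and small symbols for the difference within each batch. Most points lie to the right of 0, none is called without the replicate block, and the 4 batch values of G6PD3 for the average lie between 0.30 and 0.43.

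The reductases of nitrate and nitrite were called higher at 45 min on both media, all 3 of them. On 10 mM 3, 3, 2 and 2 were called higher at 15, 45, 90 and 180 min, beside 4.35%, 4.37%, 4.4% and 4.49% of all genes. On 1 mM 0, 3, 0 and 2 were, beside 5.44%, 4.72%, 4.93% and 4.82% of all genes. NIR1 had 988, 935, 942 and 957 CPM on 10 mM at 45 min, 849, 925, 956 and 664 CPM on 1 mM, and 291, 417, 594 and 423 CPM at 0 min, and no library at 45 min was as low as any at 0 min. Its change at 45 min was 1.14 ± 0.16 on 10 mM (adjusted p = 1.03e-06 by edgeR). For 10 mM against 1 mM averaged over times, NIR1 differed by 0.24 ± 0.08, the nitrate reductase NIA1 by 0.43 ± 0.10 and its paralogue NIA2 by 0.20 ± 0.07, none of them called (adjusted p = 0.624, 0.223 and 0.898 by edgeR).

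Over 13041 genes whose log2 CPM averaged 3 or more, those whose levels over the 36 libraries were most like each member's were often other members. For UPM1 the 3 most alike were RFNR2 (r = 0.878), RFNR1 (0.858) and G6PD3 (0.813), and for RFNR2 they were UPM1, G6PD3 (0.838) and RFNR1 (0.809). G6PD3 was most like RFNR2, UPM1 and NIR1 (0.758), and RFNR1 most like UPM1, RFNR2 and AT5G47740 (0.749). AT1G64190 was most like FD3 (0.835), AT1G78850 (0.834) and GLT1, the NADH-dependent glutamate synthase (0.830). FD3 was most like CLE4, a small signalling peptide (0.865), and WR3, the partner protein of the high-affinity nitrate transporters (0.837), followed by AT1G64190. G6PD2 was most like 2 monodehydroascorbate reductases, MDAR6 (0.767) and ATMDAR2 (0.727), and NIR1 (0.719). AT5G41670 was most like EMB3142 (0.720), AT1G12990 (0.719) and ERD7 (0.709). AT3G02360 was most like CAC1, the biotin carrier of plastid acetyl-CoA carboxylase (0.859), AT3G08530 (0.834) and MTHFR2, a methylenetetrahydrofolate reductase (0.824). These are Pearson correlations of log2 CPM given as descriptions, and the 36 points share groups, batches and depth.

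Over the 36 pairs of members the correlation had a median of 0.54 and ran from -0.44 to 0.88, with 30 above 0. Taken on deviations from the 9 group means, which removes the effect of medium and time, the median was 0.36 and 25 pairs were above 0. RFNR2 and UPM1 were alike in both views (0.878 and 0.764). AT3G02360 had the lowest values, with -0.44 to FD3 over the libraries and -0.64 to RFNR2 within groups.

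**Figure D4:**
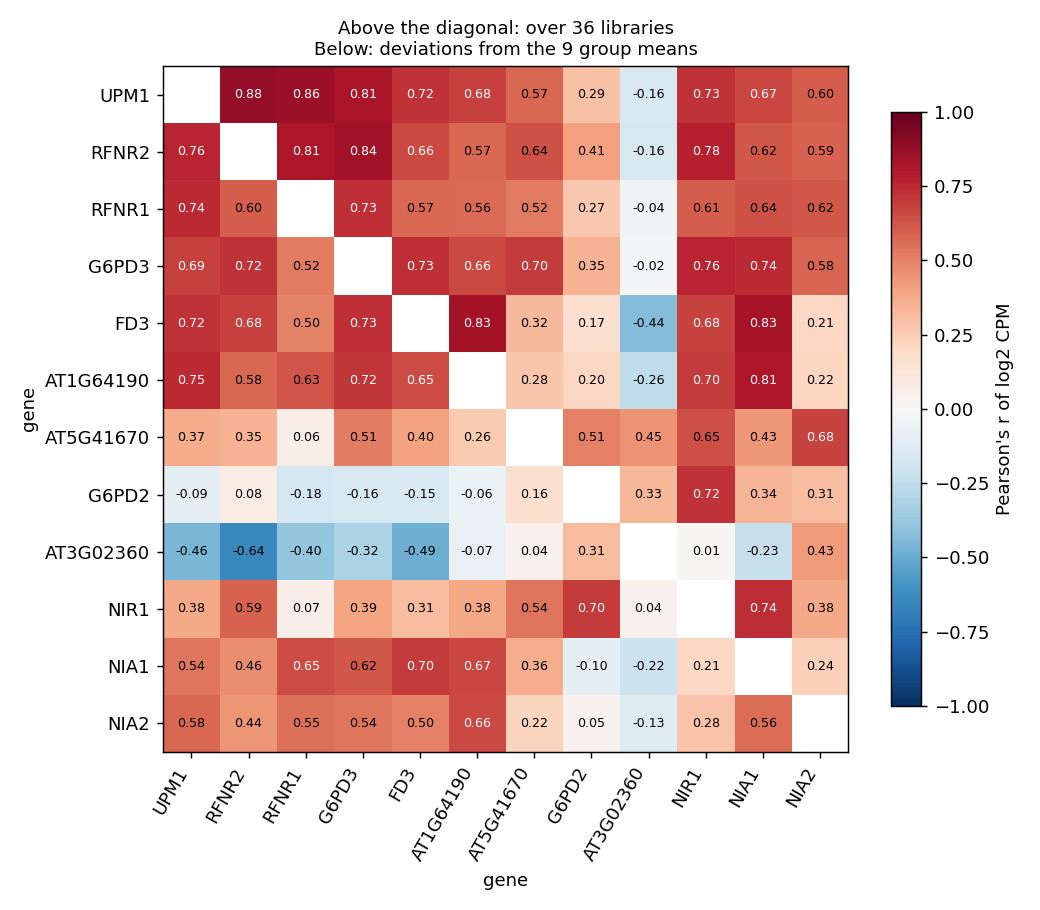
Pearson correlation of log2 CPM between the 9 genes and NIR1, NIA1 and NIA2, above the diagonal over the 36 libraries and below it on deviations from the 9 group means, on a colour scale. UPM1, RFNR2, RFNR1 and G6PD3 share high values above the diagonal, and AT3G02360 has negative ones with FD3 and RFNR2.

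Other genes of these pathways were described from lists. In 10 mM against 1 mM, at each time and averaged, edgeR called 0 genes in each of the lists of the other pentose phosphate steps (18 of 20 measured), plastid sugar phosphate carriers (4 of 6), leaf-type ferredoxin-NADP reductases and other ferredoxins (6 of 7), tetrapyrrole and sirohaem steps (12 of 13) and other NADPH-producing enzymes (6 of 7). Against 0 min, 0 of the 4 carriers were called in any comparison by edgeR. Of the 18 other pentose phosphate genes, 2 rose on 10 mM at 90 min (TKL1 and the transaldolase TRA2) and 1 at 180 min (TKL1), and on 1 mM 2 rose at 45 min (TKL1 and a ribose-5-phosphate isomerase, AT1G71100) and 1 fell at 180 min. The shares of all genes called higher were 4.4% and 4.49% on 10 mM at 90 and 180 min and 4.72% on 1 mM at 45 min, and 2.72% were called lower on 1 mM at 180 min. TKL1 (AT3G60750) encodes a transketolase of the non-oxidative branch, and its change was 0.66 ± 0.15 on 10 mM at 90 min (adjusted p = 0.0026 by edgeR). The one that fell was G6PD6 (AT5G40760), a cytosolic glucose-6-phosphate dehydrogenase, at 65.3 ± 4.67 CPM on 1 mM at 180 min and 88.7 ± 6.26 CPM at 0 min (-0.44 ± 0.11, adjusted p = 0.00597 by edgeR).

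Of the 12 tetrapyrrole genes beside UPM1, 2 rose at 15 min on each medium, beside 4.35% of all genes on 10 mM and 5.44% on 1 mM. They were HEMA1 (AT1G58290) and HEMA2 (AT1G09940), which encode glutamyl-tRNA reductase at the start of the pathway. HEMA2 averaged 21.9 ± 3.35 CPM on 10 mM at 15 min, 28.4 ± 4.32 CPM on 1 mM at 15 min, and 10.5 ± 0.905 CPM at 0 min. The change was 1.06 ± 0.20 on 10 mM and 1.41 ± 0.20 on 1 mM (adjusted p = 0.000247 and 1.05e-06 by edgeR). On 10 mM at 45 min HEMA2 alone of the 12 was called, at 0.66 ± 0.20 (adjusted p = 0.0417 by edgeR). Of all genes 4.37% were called higher there. At 90 min on 10 mM SIR (AT5G04590), the sulphite reductase that also carries sirohaem, rose by 0.70 ± 0.20 and HEMB2 (AT1G44318) fell by 1.17 ± 0.34 on the log2 scale (adjusted p = 0.0283 and 0.0266 by edgeR). In that comparison 4.4% of all genes were called higher and 1.98% lower. Among the 6 other NADPH enzymes, NADP-ME2 (AT5G11670), a cytosolic NADP-dependent malic enzyme, rose by 1.06 ± 0.20 on 10 mM at 180 min and by 1.30 ± 0.20 on 1 mM (adjusted p = 0.000231 and 9.41e-06 by edgeR). It was the only one of the 6 called in any of the 8 comparisons, and it also rose by 0.74 ± 0.20 on 10 mM at 90 min, and by 0.69 ± 0.20 and 0.78 ± 0.20 on 1 mM at 45 and 90 min (adjusted p = 0.013, 0.022 and 0.00709 by edgeR). The shares of all genes called higher were 4.4% and 4.49% on 10 mM at 90 and 180 min. On 1 mM they were 4.72%, 4.93% and 4.82% at 45, 90 and 180 min. Of the 6 leaf-type reductases and other ferredoxins, 1 was called in these 8 comparisons, the leaf ferredoxin FD1 (AT1G10960), which fell by 0.92 ± 0.27 on the log2 scale on 1 mM at 180 min (adjusted p = 0.0265 by edgeR). In that comparison 2.72% of all genes were called lower.

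Because reads came from 3' ends, the likeness of related genes there bears on how they were counted. The longest exact stretch shared within the last 500 transcript bases was 23 bases between G6PD3 and G6PD2, 28 between RFNR1 and RFNR2, 41 between AT1G64190 and AT5G41670, and 11 and 14 between these and AT3G02360. The use of strand in counting is not given in the sources used here, and reads from genes that overlap G6PD3, AT1G64190 or UPM1 on the opposite strand cannot be told apart. Their summed counts over all libraries were 253 beside 14944 for G6PD3, 970 and 15 beside 18654 for AT1G64190, and 0 beside 12182 for UPM1.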

How the data were processed

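Root RNA of 36 libraries was measured by BrAD-seq. The deposited values are raw read counts per gene, and per the submitters' processing notes FastQC, Bowtie2, SAMtools, HTSeq and build TAIR10 were used, with versions and use of strand not given in the sources used here. The authors' counts were used unchanged. Of 32833 identifiers, 32548 matched RefSeq (TAIR10.1). From there edgeR 4.0.16 (R 4.3.3, limma 3.58.1) filtered genes by filterByExpr over the 9 groups, leaving 18768, scaled by TMM and ran quasi-likelihood tests with 1 coefficient per group over all libraries, with Benjamini-Hochberg adjustment at 0.05. CPM are TMM-scaled, and log2 CPM used a prior count of 2.

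The 9 genes, the pathway lists and the likeness rule (the 3 tested genes most correlated with each member) were chosen with earlier results of these data known. All members are named, and from each pathway list the called genes with the smallest adjusted p in a comparison, up to 2 against 0 min.

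Total counts were 1376404 to 7512410 per library (median 5126926), and a member had 65 to 7887 reads, with a counting error of 3.31 to 12.4% at each gene's lowest count. No library pair of a group agreed within sampling noise (chi-square over degrees of freedom 2.62 to 11.6 in 54 pairs), so none was treated as a repeat count of another. Library preparation can also add more than this noise, so the check cannot show that the samples were separate. The replicate number names the batch in the labels, so it pairs libraries. Deviations of same-numbered libraries correlated at a median of 0.202 (-0.037 to 0.403), with 117 of 144 pairs over 0.1. The coefficient of variation between libraries, estimated over all genes, was 17.0% without the replicate block and 12.1% with it.

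Alternatives were RLE scaling, no filter (25304 genes), a replicate block for batch, DESeq2 1.42.0, fits to the compared libraries alone, and leaving out each library. The test was checked on simulated data for 10 mM against 1 mM at 45 min. Recovery was 17.9% where a 1.5-fold shift had been put in. It was 61.2% at 2-fold and 92.4% at 4-fold, with 6 false calls. Small differences were therefore mostly missed in that check.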

Additional observations from a re-analysis of the deposited data

Results flagged for a closer look

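Of 81 sets of 4 libraries (9 genes in 9 groups), 6 held a library whose gap to the nearest of the others was, as a share of the range of the set, past Dixon's 95% critical value, which chance gives in about 1 of 20 sets. AT1G64190 had 102 CPM in replicate 4 of 10 mM at 180 min, where the others had 129 to 133 CPM. AT1G64190 had 89.6 CPM in replicate 4 of 1 mM at 45 min, where the others had 133 to 141 CPM. In the same library UPM1 had 50.1 CPM, where the others had 81.3 to 83.8 CPM, and that library had the lowest total count of the series. RFNR1 had 52.7 CPM in replicate 3 of 10 mM at 90 min, where the others had 64.8 to 66.9 CPM. AT3G02360 had 216 CPM in replicate 2 of 1 mM at 180 min, where the others had 236 to 240.0 CPM. AT5G41670 had 172 CPM in replicate 3 of 0 min, where the others all had 124 CPM.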

How the results depend on the processing

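With the replicate block, counts of all genes called were 2 at 15 min and 9 at 90 min for 10 mM against 1 mM, and 44 for the average (3 without it). Against 0 min they were 1338, 1733, 2008 and 2029 on 10 mM at 15, 45, 90 and 180 min (968, 1094, 1197 and 1286 without it), and 1808, 2193, 2214 and 2287 on 1 mM (1298, 1311, 1340 and 1414 without it). At these times the block gave 6, 8, 5 and 6 members on 10 mM, where the fit without it gave 2, 7, 5 and 5. On 1 mM it gave 2, 8, 2 and 3 members, where the fit without it gave 0, 7, 1 and 2. For the average the block gave 1 member in place of 0. Over single members it gained 12 calls and lost 0. With only the libraries compared, 658 genes and 3 members were called on 1 mM at 45 min, 2 members on 1 mM at 90 min, and 0 genes for the average. DESeq2 called 19 genes for the average and 1 member on 1 mM at 15 min. RLE scaling ended 1 call of a member, and no filter ended 0.

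Leaving out each library gave 1 to 4, 7 to 8, 3 to 6 and 2 to 5 members called on 10 mM at 15, 45, 90 and 180 min. On 1 mM it gave 0 to 1, 4 to 8, 1 to 1 and 1 to 2, and 0 to 5 genes for the average. Of 29 calls of members, 18 held in each of these fits. Pathway genes and the reductases were not refitted this way.

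Values near 0 changed sign. The difference of G6PD2 at 45 min was -0.0043 with the block, and AT5G41670 on 1 mM at 180 min was -0.00051 with no filter, -0.0057 with the block and -0.0014 in DESeq2. Without single libraries AT3G02360 ran from -0.015 to 0.065 on 10 mM at 15 min, from -0.067 to 0.11 on 1 mM at 15 min, from -0.097 to 0.082 for their difference and from -0.013 to 0.051 for the average. AT5G41670 ran from -0.16 to 0.045 on 1 mM at 90 min and from -0.15 to 0.15 at 180 min. G6PD2 ran from -0.21 to 0.094 on 1 mM at 90 min, and for 10 mM against 1 mM from -0.086 to 0.14 at 15 min, from -0.088 to 0.10 at 45 min and from -0.021 to 0.24 at 180 min. For that contrast FD3 ran from -0.021 to 0.32 at 45 min and from -0.028 to 0.26 at 180 min, and RFNR1 from -0.065 to 0.053 at 15 min. The cause was not tested. Counting error at each member's lowest count was 3.31 to 12.4%.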
